A study of Mus musculus with 12 samples.

Results

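Gas5 and the genes of the ribosomal proteins were followed in the scraped epithelial layer of the mouse colon. Members were taken by name from the annotation of the Affymetrix 430A array. They were every Gas5 probe set and the probe sets with 1 gene symbol of the form Rpl or Rps and a number, or Rplp0, Rplp1, Rplp2 or Rpsa, leaving out the S6 kinases. This gave 50 of 12393 named genes, namely Gas5 with 4 probe sets and 49 ribosomal protein genes with 101 probe sets. For a ribosomal protein gene the probe set of the highest mean signal stands for the gene unless stated. Gas5 itself was chosen by its measured values: it had come up in an earlier analysis of these arrays for its differences from the wild type control arrays, so its values against those arrays are a description and carry no test.

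The 12 arrays fell into 4 groups of 3, all of male C57BL/6 mice aged 6 to 8 weeks. The groups were POR-null mice given quercetin, POR-null mice on control diet, wild type mice given quercetin and wild type mice on control diet. All mice had 14 days on a soya-free powdered diet, and the quercetin groups then had 24 hours on it with 6200 ppm of this plant flavonol, about 7 mg for each mouse. POR, cytochrome P450 reductase, supplies electrons to the P450 enzymes of the endoplasmic reticulum. The null line is known from the literature to lack it in liver cells, which the labels do not state. RNA of 3 mice was pooled for each array, so the spread between arrays is that between pools. The comparisons are quercetin against control diet within a genotype, POR-null against wild type on a diet, and the dependence of the quercetin response on genotype.

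Ribosomal proteins are made in near-equal amounts and join ribosomal RNA in the small and large ribosomal subunits. Their messenger RNAs start with a C followed by a run of pyrimidines, the 5′ terminal oligopyrimidine (TOP) sequence, through which mTOR signalling sets how strongly they are translated. Gas5, growth arrest-specific 5, is a spliced RNA with a start of the same kind that makes no known protein. Its introns carry small nucleolar RNAs (snoRNAs), which guide the modification of ribosomal RNA. Its spliced product is normally destroyed in the course of translation, so its level is known to go up when translation slows, as in arrested cells. In the colon the proliferating cells at the crypt base are the ones with the greatest demand for new ribosomes.

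The RefSeq starts of the genes the results turn on are printed below, since the TOP sequence is what links Gas5 to the ribosomal protein genes. Each window runs from 10 bases before the annotated start to the first 20 bases of the transcript, read 5′ to 3′ on the gene's strand (RefSeq, build GRCm38.p6). Capitals mark a C followed by at least 4 pyrimidines (C or T) that begins within 5 bases of the start on the sense strand, and sequences without capitals hold no such run there. Both Gas5 starts are shown. Rps24 also has a second, downstream start in RefSeq without such a run, which is not printed.
Gas5, upstream start, chr1:161034591-161034620, plus strand: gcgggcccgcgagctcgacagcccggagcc
Gas5, downstream start, chr1:161035156-161035185, plus strand: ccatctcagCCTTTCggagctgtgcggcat
Rps9, chr7:3704031-3704060, plus strand: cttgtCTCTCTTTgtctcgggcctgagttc
Rps24, chr14:24490668-24490697, plus strand: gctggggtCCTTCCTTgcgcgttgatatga
Rplp2, chr7:141447641-141447670, plus strand: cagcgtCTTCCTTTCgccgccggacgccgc
Rpl38, chr11:114668570-114668599, plus strand: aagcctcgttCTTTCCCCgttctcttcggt
Rpl13a, chr7:45128726-45128755, minus strand: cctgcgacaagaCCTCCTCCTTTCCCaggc
Rpsa, chr9:120127756-120127785, plus strand: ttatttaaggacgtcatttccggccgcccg
Rps15, chr10:80292421-80292450, plus strand: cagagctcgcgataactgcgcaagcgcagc
Rpl37a, chr1:72711250-72711279, plus strand: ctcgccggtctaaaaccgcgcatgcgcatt
Rps3a1, chr3:86142649-86142678, minus strand: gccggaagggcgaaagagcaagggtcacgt

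Of 42 ribosomal protein genes with a RefSeq start in the table, 20 (47.6%) had such a run, against 5718 of all 27025 genes with a start (21.2%). A window without the run says only that these letters are not next to the annotated start. In RefSeq the Gas5 gene, a long non-coding RNA gene on chromosome 1, holds 8 snoRNA genes, Snord47 among them. Of the 49 ribosomal protein genes, 14 hold at least 1 snoRNA gene, such as Rpl13a with Snord32a, Snord33, Snord34 and Snord35a and Rpsa with Snora62.

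Values are the deposited log2 signals, on which 1 unit is a doubling. The tissue label was checked against 11 epithelial genes, of which 10 were on the array, and their mean signal lay between 11.37 and 11.68 on the 12 arrays. Mean signal of 8 smooth muscle genes, such as Acta2 and Myh11, was 7.42 to 7.99 on the POR-null quercetin arrays, 6.11 to 7.98 on the POR-null control arrays and 6.27 to 10.12 on the wild type quercetin arrays, against 5.68 to 6.08 on the wild type control arrays. Mean signal of 5 pancreatic acinar genes reached 10.05 on POR-null quercetin array 2 and 9.14 on wild type control array 1, and array 2 of the wild type control group stood at 7.66, against 7.27 or less on the other 9. In such bulk samples, more RNA per cell and more cells of a type cannot be told apart. In none of the 4 group comparisons did limma call a probe set at an adjusted p under 0.05. At an unadjusted p under 0.05 it called between 541 and 1537 of 22626.

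Gas5 was low on the wild type control arrays and higher in the other 3 groups. Its brightest probe set, 1449410_a_at, read 9.15, 9.25 and 9.16 on the POR-null quercetin arrays and 9.41, 9.05 and 9.25 on the POR-null control arrays. The wild type quercetin arrays read 9.67, 9.12 and 9.35, against 8.80, 8.58 and 8.58 on the wild type control arrays. All 3 wild type control arrays lay below all 9 others, and the other 3 groups overlapped. The log2 difference from wild type control was 0.58 (SE 0.13, 1.5-fold) for POR-null control and 0.73 (SE 0.13, 1.65-fold) for wild type quercetin. Both differences rest on the same 3 wild type control arrays.

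Gas5 was tested in the comparisons that do not use those arrays, and it passed the threshold in neither. POR-null quercetin averaged 9.19 ± 0.06 and POR-null control 9.24 ± 0.18 (SD, n = 3 arrays each), a log2 difference of -0.05 (SE 0.13, limma adjusted p = 1). Against the wild type quercetin mean of 9.38 ± 0.28, the POR-null quercetin difference was -0.19 (SE 0.13, limma adjusted p = 0.998). The response to quercetin in POR-null mice minus that in wild type mice came to -0.78 (SE 0.19), a value that includes the low wild type control arrays.

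The next probe set of Gas5, 1419291_x_at, gave the same picture. It read 8.87, 8.90 and 8.71 on POR-null quercetin arrays, 9.18, 8.82 and 8.93 on POR-null control arrays and 9.34, 8.85 and 8.96 on wild type quercetin arrays, against 8.46, 8.14 and 8.21 on wild type control arrays. Again all 3 wild type control arrays were below the other 9, and its correlation with the brightest probe set over the 12 arrays was 0.98. The remaining pair of probe sets is dim and separated the groups less. Probe set 1424843_a_at read 4.77 to 5.22 in POR-null quercetin, 4.78 to 5.36 in POR-null control and 5.05 to 5.59 in wild type quercetin, against 4.57 to 5.04 in wild type control. Probe set 1436222_at read 4.04 to 4.32, 4.06 to 4.55 and 4.19 to 4.83 in these 3 groups in the same order, against 4.07 to 4.21 in wild type control. In 1424843_a_at all wild type quercetin arrays lay above the wild type control arrays, though narrowly, and the other groups overlapped. In 1436222_at all groups overlapped. Their correlations with the brightest probe set were 0.85 and 0.69. A further probe set, 1455904_at, is annotated to Snord47 and Gas5 together and is no member. It read 5.54 to 5.9, 5.69 to 6.08 and 5.63 to 5.98 in the same 3 groups, against 5.65 to 5.85 in wild type control.

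**Figure D1:**
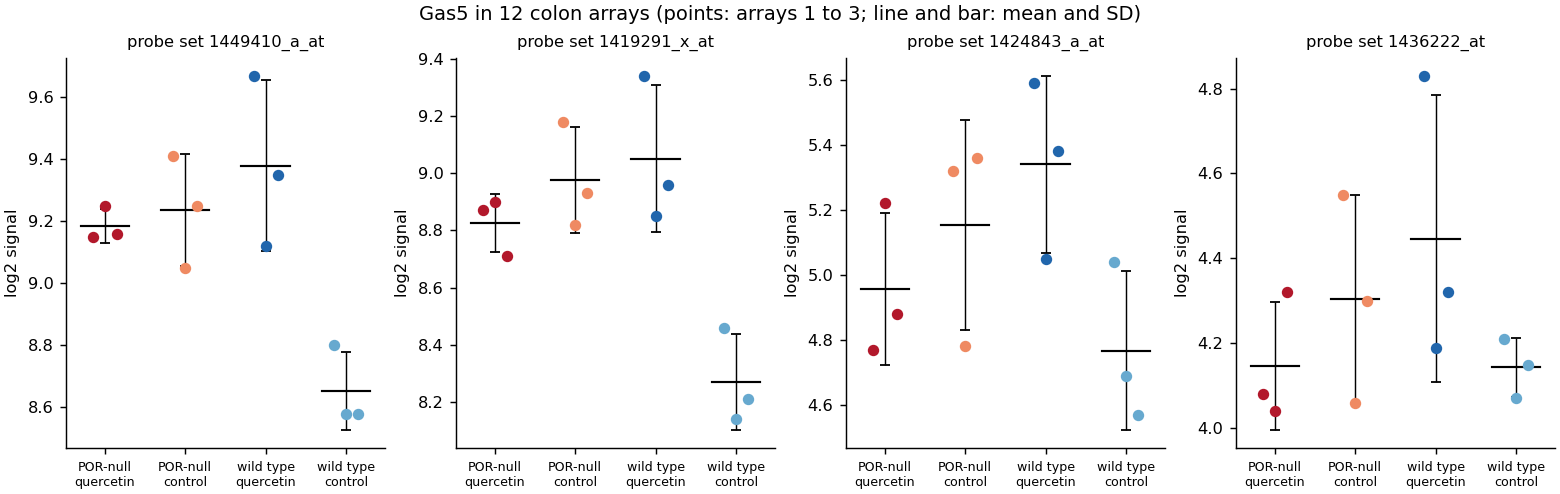
Log2 signal (vertical axes, which differ between panels) of the 4 Gas5 probe sets in 4 groups. Points are arrays 1 to 3, and the line and bar give the mean and SD. In the 2 brighter probe sets at the left, all 3 wild type control arrays lie below the other 9, and in the 2 dim ones at the right the groups overlap, except wild type quercetin and wild type control in 1424843_a_at.

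The smooth muscle genes were also low on the wild type control arrays. On the other 9 arrays the muscle means ran from 6.11 on POR-null control array 3 to 10.12 on wild type quercetin array 3. Gas5 read 9.25 and 9.35 on these arrays. Wild type control had muscle means of 5.68 to 6.08 and Gas5 signals of at most 8.80. Mean signal of 7 fibroblast and matrix genes was 6.07 to 7.35 on the 9 other arrays, against 5.24 to 6.79 in wild type control. For 4 MHC class II genes it was 8.59 to 10.50 on those 9 arrays, against 7.33 to 9.39 in wild type control. For 5 B and plasma cell genes it was 6.66 to 8.79, against 6.16 to 7.81 in wild type control, and for 4 macrophage genes 5.9 to 6.90, against 5.73 to 6.52. For 5 T cell genes it was 6.00 to 6.53, against 5.97 to 6.13. Mean signal of 5 proliferation genes was 6.55 to 7.16 in POR-null quercetin, 6.66 to 7.45 in POR-null control and 7.14 to 7.25 in wild type quercetin, against 6.97 to 7.22 in wild type control, so that these groups overlapped. The part of these cell types in the Gas5 difference was not tested.

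**Figure D2:**
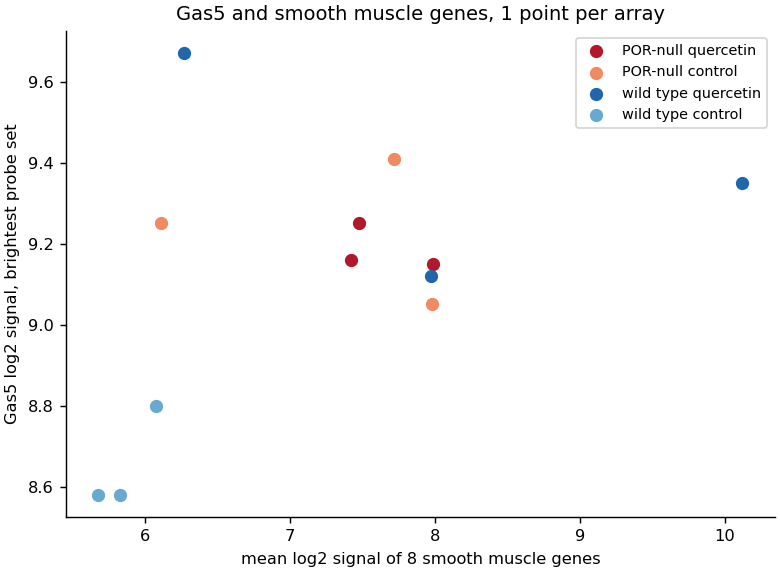
Log2 signal of the brightest Gas5 probe set (vertical axis) against the mean log2 signal of 8 smooth muscle genes (horizontal axis), 1 point per array, coloured by group. The 3 wild type control arrays lie at the lower left, lowest on both axes.

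The ribosomal protein genes were mostly bright. Of the 49 genes, 43 had a mean above 5.94, the median over all probe sets, and 33 had a mean of at least 10, a level that 748 probe sets reached in all. Rps28, Rps29 and Rpl41, small proteins of the small subunit in the first 2 cases and of the large subunit in the last, had means of 12.68, 12.86 and 13.26. Dim members included Rpl3l (4.31), the striated muscle form of Rpl3, Rpl39l (3.50), a form of Rpl39 known from the testis, and Rps15a-ps6 (3.12), a transcribed pseudogene in RefSeq. The probe sets of Rpl14 (4.58), Rps25 (5.10) and Rpl12 (5.90), which are neither paralogs nor pseudogenes, were also below that median. Among the 43, Rpl4, Rpl38 and Rps14 varied least between arrays of a group, with a pooled SD of 0.06 each, and Rpl27a and Rps6 varied most, with 0.30 each.

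Against the wild type control arrays the ribosomal protein genes were mostly higher by a small amount, in POR-null control mice and in wild type mice given quercetin. In POR-null control 40 of 49 were higher and 9 lower, with a median log2 difference of 0.09 and a range of -0.16 to 0.33. Over all probe sets the median was -0.01 and 46.2% were higher, and over the 748 bright probe sets the median was 0.02 and 56.0% were higher. The 33 members as bright as these had a median of 0.11 and 84.8% were higher. At an unadjusted limma p under 0.05, 6.79% of all probe sets passed in either direction, 3.68% as higher and 3.11% as lower. Of the bright probe sets 9.22% passed, and of the bright members 12.1%. There were 4 members past this threshold as higher and 0 as lower, 8.16% of the members. Leaving out 1 array moved this count to 2 (wild type control array 3), 2 (POR-null control array 2) or 12 (POR-null control array 3). The count over all probe sets moved with it, to 862, 1214 and 2548, against 1537 with all arrays. No member passed after adjustment over all probe sets, the smallest adjusted p being 0.71. In 8 members the POR-null control arrays all lay above the wild type control arrays and in 0 all below, where 4.81% of all probe sets lay above and 4.86% below, and 10% of the bright ones lay above.

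In wild type mice given quercetin 41 members were higher and 8 lower than in wild type control, with a median of 0.11 (range -0.11 to 0.32). Over all probe sets the median was 0.00 and 50% were higher, and over the bright ones it was -0.02 and 43.6% were higher. The 33 bright members had a median of 0.12 and 90.9% were higher. At an unadjusted limma p under 0.05, 5.15% of all probe sets passed in either direction, 3.2% as higher and 1.94% as lower. Of the bright ones 5.88% passed, and of the bright members 15.2%. There were 5 members past this threshold, all higher, 10.2% of the members. Leaving out an array changed this count to 3 without wild type control array 1, 2 without wild type control array 3, 3 without wild type quercetin array 1, 3 without array 2 of that group and 8 without its array 3. Over all probe sets the counts were then 1941, 775, 1671, 950 and 969, against 1165 with all arrays. The smallest adjusted p of a member was 0.952. In 12 members all wild type quercetin arrays lay above all wild type control arrays, against 5.65% of all probe sets and 7.35% of the bright ones, and in 0 all lay below, against 3.66% of all probe sets. These values and those of the POR-null control mice share the wild type control arrays and are not independent of each other.

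The 2 comparisons without wild type control arrays gave medians near 0. POR-null quercetin minus POR-null control had a median of -0.02 over the members (19 higher, 30 lower, range -0.33 to 0.15) and 0.01 over all probe sets, of which 51.8% were higher. The bright probe sets were close to the members, with a median of -0.02 and 39.8% higher, against 38.8% of the members. The 33 bright members had a median of -0.02 and 33.3% were higher. With limma 0 members had an unadjusted p under 0.05, where 2.82% of all probe sets did (1.29% higher and 1.53% lower), and the smallest adjusted p was 1. The count was 1 without POR-null control array 3 or without POR-null quercetin array 2, where 1729 and 461 of all probe sets passed, against 637 with all arrays. In 2 members, Rps3 and Rpsa, the POR-null quercetin arrays all lay below the POR-null control arrays, where 3.27% of all probe sets did. POR-null quercetin minus wild type quercetin had a median of -0.03 over the members (13 higher, 35 lower) and -0.01 over all probe sets, of which 47.1% were higher. Over the bright probe sets the median was 0.00 and 51.6% were higher, and over the 33 bright members it was -0.04 and 21.2% were higher. Again 0 members had an unadjusted limma p under 0.05, where 2.39% of all probe sets did (1.03% higher and 1.36% lower), with a smallest adjusted p of 0.998. In 1 member, Rpsa (-0.16, SE 0.10), the POR-null quercetin arrays all lay below the wild type quercetin arrays and in 0 above, where 3.74% of all probe sets lay below and 3.08% above.

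**Figure D3:**
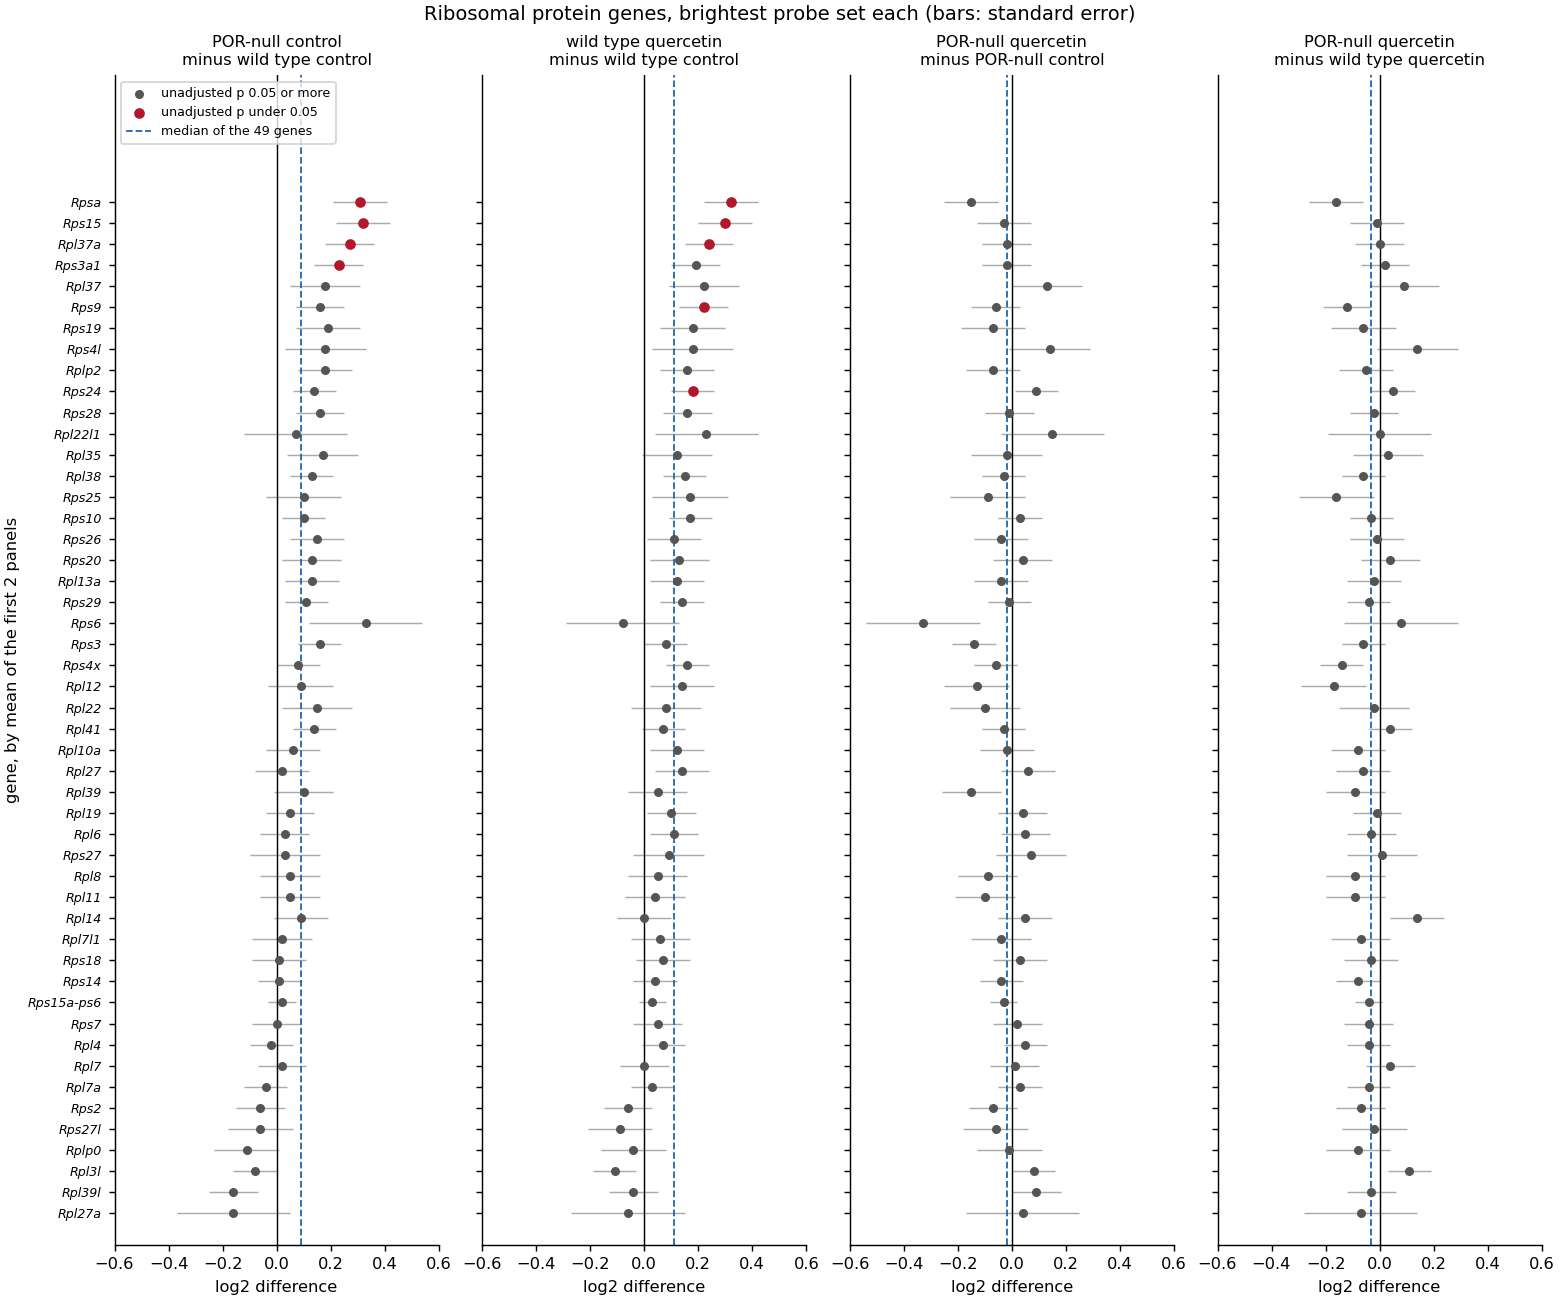
Log2 difference (horizontal axes, bars are the standard error) of the 49 ribosomal protein genes (rows) in 4 comparisons of groups. Red points have an unadjusted p under 0.05, and the dashed line is the median of the genes, which lies at 0.09 and 0.11 in the 2 left panels and at -0.02 and -0.03 in the 2 right ones.

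On single arrays the shift did not separate the groups. The median over the 49 genes of log2 signal minus each gene's own mean was -0.04, 0.06 and 0.02 on the POR-null quercetin arrays and 0.09, 0.05 and -0.06 on the POR-null control arrays. It was 0.10, 0.06 and -0.05 on the wild type quercetin arrays, against -0.04, -0.05 and -0.06 on the wild type control arrays. The wild type control arrays lay close together. Array 1 of POR-null quercetin, array 3 of POR-null control and array 3 of wild type quercetin lay at their level. On these last 2 arrays the smooth muscle mean was 6.11 and 10.12. Of the 49 genes, 14, 35 and 30 were above their own mean on the POR-null quercetin arrays and 40, 31 and 10 on the POR-null control arrays. On the wild type quercetin arrays 42, 35 and 16 were, against 16, 8 and 13 on the wild type control arrays. The same median over the bright probe sets of all genes ran from -0.06 to 0.05. It was -0.01, 0.03 and -0.03 on the POR-null quercetin arrays and 0.04, 0.05 and -0.04 on the POR-null control arrays. The wild type quercetin arrays had 0.02, 0.00 and -0.06, against -0.06, 0.03 and 0.00 on the wild type control arrays.

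**Figure D4:**
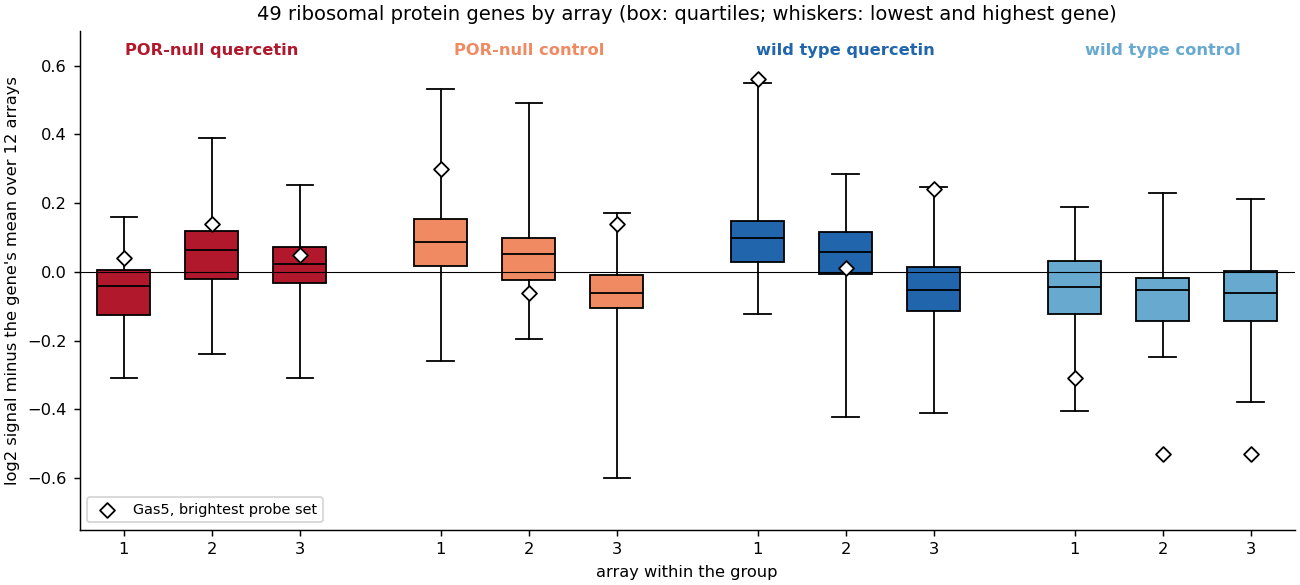
Log2 signal minus the gene's mean over 12 arrays (vertical axis) for the 49 ribosomal protein genes on each array. Boxes give the quartiles, whiskers the lowest and highest gene and diamonds the brightest Gas5 probe set. The medians of POR-null quercetin array 1, POR-null control array 3 and wild type quercetin array 3 lie as low as those of wild type control. The Gas5 diamonds are lowest in wild type control.

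Among proteins of the small subunit, the 20 genes had medians of 0.13 for POR-null control and 0.15 for wild type quercetin against wild type control. Rpsa, known also as the laminin receptor, read 11.79, 11.82 and 11.67 in POR-null quercetin and 11.99, 11.91 and 11.83 in POR-null control. It read 11.84, 12.01 and 11.91 in wild type quercetin, against 11.83, 11.55 and 11.42 in wild type control. Wild type control array 1 reached the lowest POR-null control array, and the other wild type control arrays were the lowest of the 12. The log2 difference from wild type control was 0.31 (SE 0.10, limma adjusted p = 0.71) for POR-null control and 0.32 (SE 0.10, limma adjusted p = 0.952) for wild type quercetin. The other Rpsa probe set gave -0.07 and -0.04, so that the probe sets of this gene disagreed.

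Rps15, a protein of the head of the small subunit, read 11.42, 11.60 and 11.41 in POR-null quercetin and 11.62, 11.50 and 11.40 in POR-null control. It read 11.44, 11.59 and 11.42 in wild type quercetin, against 11.29, 11.20 and 11.06 in wild type control. All wild type control arrays lay below the other 9. The difference from wild type control was 0.32 for POR-null control (SE 0.10, limma adjusted p = 0.71) and 0.30 for wild type quercetin (SE 0.10, limma adjusted p = 0.952). Its other probe set gave 0.21 and 0.25.

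Rps3a1, the mouse Rps3a protein of the small subunit, read 11.49, 11.59 and 11.65 in POR-null quercetin, 11.64, 11.70 and 11.44 in POR-null control and 11.67, 11.57 and 11.43 in wild type quercetin, against 11.42, 11.38 and 11.30 in wild type control. Its wild type control arrays were again below all others, if narrowly. The difference was 0.23 for POR-null control (SE 0.09, limma adjusted p = 0.734) and 0.19 for wild type quercetin (SE 0.09, limma adjusted p = 0.957). Rps24, needed for processing of small subunit RNA and mutated in some patients with Diamond-Blackfan anaemia, read 12, 12.11 and 11.90 in POR-null quercetin, 11.95, 11.94 and 11.86 in POR-null control and 11.93, 12.03 and 11.91 in wild type quercetin, against 11.81, 11.76 and 11.77 in wild type control. It too was below all others in wild type control, with differences of 0.14 (SE 0.08, limma adjusted p = 0.781) for POR-null control and 0.18 (SE 0.08, limma adjusted p = 0.957) for wild type quercetin. Its 6 probe sets gave 0.02 to 0.34 and -0.02 to 0.28 in these comparisons.

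Rps9, which in yeast affects the accuracy of decoding, read 10.78, 10.78 and 10.84 in POR-null quercetin, 10.97, 10.90 and 10.70 in POR-null control and 11.02, 10.90 and 10.83 in wild type quercetin, against 10.64, 10.78 and 10.66 in wild type control. The wild type quercetin arrays were all above the wild type control arrays (difference 0.22, SE 0.09, limma adjusted p = 0.957), but its 3 probe sets ran from -0.03 to 0.22 and only 1 of them was above 0. Rps3, at the entry of the messenger RNA channel, read 11.67, 11.67 and 11.75 in POR-null quercetin, 11.90, 11.82 and 11.79 in POR-null control and 11.83, 11.79 and 11.64 in wild type quercetin, against 11.70, 11.63 and 11.69 in wild type control. Here the POR-null control arrays stood above both the wild type control arrays (0.16, SE 0.08, limma adjusted p = 0.74) and the POR-null quercetin arrays (quercetin minus control -0.14, SE 0.08, limma adjusted p = 1).

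Rps6, the substrate of the S6 kinases downstream of mTOR, had a dim probe set here with wide spread. It read 6.19, 6.84 and 6.14 in POR-null quercetin, 6.98, 6.94 and 6.23 in POR-null control and 6.36, 6.43 and 6.13 in wild type quercetin, against 6.50, 6.4 and 6.25 in wild type control. The groups overlapped in every comparison, and the POR-null control difference of 0.33 had an SE of 0.21. Rps14 had means of 12.42, 12.47 and 12.50 in POR-null quercetin, POR-null control and wild type quercetin, against 12.46 in wild type control. Rps4x, encoded on the X chromosome, differed by -0.14 (SE 0.08, limma adjusted p = 0.998) between POR-null quercetin and wild type quercetin, and its arrays overlapped.

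The 22 genes of the large subunit and its stalk had medians of 0.07 for POR-null control and 0.09 for wild type quercetin against wild type control. Rpl37a, a small zinc-binding protein of the large subunit, read 12.07, 12.17 and 11.91 in POR-null quercetin, 12.06, 12.17 and 11.99 in POR-null control and 12, 12.16 and 11.98 in wild type quercetin, against 11.80, 11.85 and 11.77 in wild type control. All wild type control arrays lay below the other 9. The differences were 0.27 (SE 0.09, limma adjusted p = 0.71) and 0.24 (SE 0.09, limma adjusted p = 0.952), and its 3 probe sets ran from -0.07 to 0.27 and from -0.01 to 0.24. With Rps15, Rps24 and Rps3a1 it made 4 of 49 members whose wild type control arrays were all below the other 9, a pattern that 0.778% of all probe sets showed.

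The stalk proteins, which recruit elongation factors to the ribosome, lay on different sides of 0. Rplp2 read 11.73, 11.81 and 11.56 in POR-null quercetin, 11.84, 11.87 and 11.60 in POR-null control and 11.83, 11.76 and 11.66 in wild type quercetin, against 11.60, 11.57 and 11.59 in wild type control. Rplp0 read 11.62, 11.86 and 11.94, then 11.71, 11.92 and 11.83, then 12.05, 11.97 and 11.63 in these 3 groups in the same order, against 11.87, 11.94 and 11.97 in wild type control. The Rplp2 differences from wild type control were 0.18 (SE 0.10, limma adjusted p = 0.767) for POR-null control and 0.16 (SE 0.10, limma adjusted p = 0.957) for wild type quercetin, and those of Rplp0 were -0.11 (SE 0.12) and -0.04 (SE 0.12). Neither gene passed a threshold in any comparison.

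Rpl11, which with Rpl5 and 5S RNA can bind Mdm2 and so raise p53, differed by 0.05 (SE 0.11) and 0.04 (SE 0.11) from wild type control. Rpl38, known in mice for its part in translating homeobox messenger RNAs, differed by 0.13 (SE 0.08) and 0.15 (SE 0.08). All its wild type quercetin arrays, 12.13, 12.19 and 12.10, lay above the wild type control arrays at 11.93, 12.04 and 11.99. Rpl13a, which in human cells also leaves the ribosome to silence translation after interferon gamma, differed by 0.13 (SE 0.10) and 0.12 (SE 0.10), and all 4 of its probe sets were above 0 in both comparisons. Rpl4 stood at 12.17, 12.12 and 12.21 in POR-null quercetin, POR-null control and wild type quercetin, against 12.14 in wild type control. Rpl39 differed by -0.15 (SE 0.11) and Rps24 by 0.09 (SE 0.08) between POR-null quercetin and POR-null control. Rpl12 differed by -0.17 (SE 0.12), Rpl14 by 0.14 (SE 0.10) and Rpl3l by 0.11 (SE 0.08) between POR-null quercetin and wild type quercetin, each with a limma adjusted p of 0.998. Each of these genes was read on a dim probe set. Rplp1, Rpl5 and Rps27a were not followed, since no probe set carried their symbol alone.

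**Figure D5:**
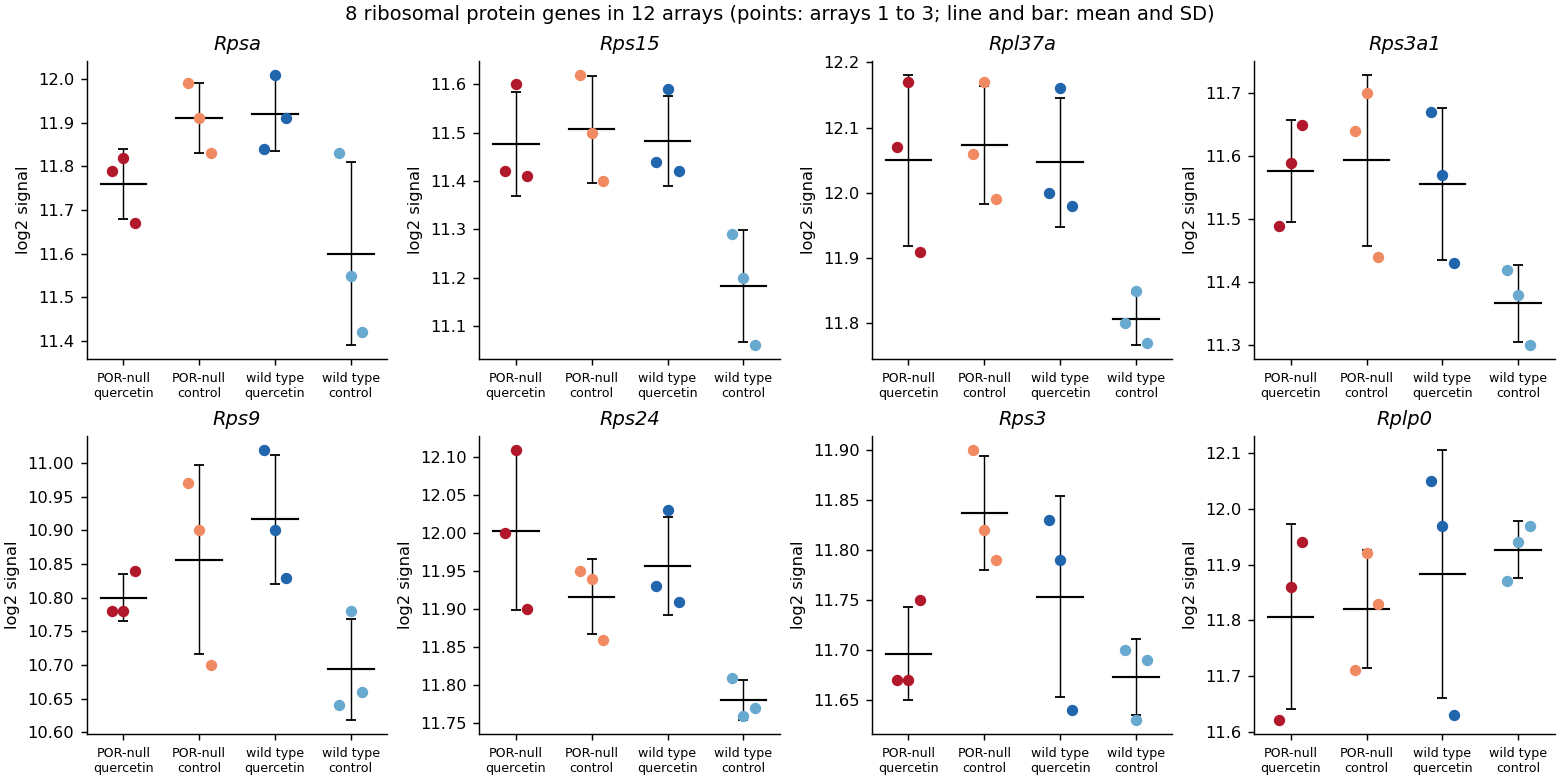
Log2 signal (vertical axes, which differ between panels) of 8 ribosomal protein genes in 4 groups. Points are arrays 1 to 3, and the line and bar give the mean and SD. In Rps15, Rpl37a, Rps3a1 and Rps24 the 3 wild type control arrays lie below the other 9, while Rplp0 overlaps between all groups.

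The 6 paralogs, near copies of ribosomal protein genes that are used in special tissues or states, had medians of -0.02 and 0.01 against wild type control. Rps4l, which RefSeq lists as a transcribed pseudogene, read 6.94, 7.08 and 6.93 in POR-null quercetin, 6.85, 6.81 and 6.87 in POR-null control and 7.04, 6.41 and 7.08 in wild type quercetin, against 6.72, 6.72 and 6.54 in wild type control. Its POR-null quercetin arrays were all above its POR-null control arrays (0.14, SE 0.15, limma adjusted p = 1), and it was the 1 member with that pattern, where 3.49% of all probe sets had it. Rpl22l1, a copy of Rpl22, read 9.53, 9.85 and 9.58, then 9.91, 9.63 and 8.96, then 9.66, 9.80 and 9.5, against 9.46, 9.45 and 9.37 in wild type control. Rps27l, a target of p53, differed by -0.06 and -0.09 from wild type control, Rpl7l1 by 0.02 and 0.06, Rpl3l by -0.08 and -0.11 and Rpl39l by -0.16 and -0.04.

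Whether the response to quercetin depended on genotype was asked as the POR-null difference minus the wild type difference. Its median was -0.10 over the 49 members, with 41 below 0 and 7 above, and 0.01 over all probe sets, of which 51.0% were above 0. Over the bright probe sets the median was -0.01 and 46.1% were above 0, and over the 33 bright members it was -0.14 and 6.06% were above 0. All 20 small subunit genes were below 0 (median -0.17), and of the 22 large subunit genes 17 were (median -0.12). With limma 3 members had an unadjusted p under 0.05, all below 0, where 4.74% of all probe sets passed in either direction, 1.83% above 0 and 2.92% below. They were Rpsa (-0.47, SE 0.15), Rps15 (-0.33, SE 0.14) and Rps9 (-0.28, SE 0.13), each with a limma adjusted p of 0.998. The count was 8 without POR-null control array 3 and 1 without any of wild type control array 3, wild type quercetin array 2, POR-null control array 1, POR-null quercetin array 1 or POR-null quercetin array 3. Over all probe sets 1811 passed in the first case and 725 to 1132 in the others, against 1073 with all arrays. Like the differences above, these values draw on the wild type control arrays.

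Genes with several probe sets showed whether these agreed, which is no check of the groups, since they read the same RNA pools. Of 23 such members, 12 had all probe sets above 0 for POR-null control minus wild type control, 0 had none above 0 and 11 were mixed. For wild type quercetin minus wild type control the counts were 12, 1 and 10. For POR-null quercetin minus POR-null control they were 2, 5 and 16, and for POR-null quercetin minus wild type quercetin 0, 5 and 18. Over all 101 probe sets the medians were 0.10, 0.10, -0.01 and -0.02 in these comparisons. Genes with a pyrimidine run at the start had medians of 0.10 and 0.11 against wild type control, and genes without one 0.09 and 0.11. Members with a snoRNA gene inside had medians of 0.12 and 0.11, and members with none 0.08 and 0.10.

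Lists of other genes with a role near Gas5 or the ribosome were set beside the members. At an unadjusted p under 0.05, 6.79% of all probe sets passed for POR-null control and 5.15% for wild type quercetin against wild type control, the shares against which the counts of these lists stand. Of 30 other snoRNA host genes 16 were measured, with medians of 0.06 for POR-null control and 0.06 for wild type quercetin against wild type control and 0 at an unadjusted p under 0.05 in either. Eif4a1, the helicase of translation initiation, differed by -0.25 and -0.20 in these comparisons and the non-coding Snhg11 by 0.21 in each. The chaperonin subunit Cct6a differed by -0.19 for POR-null control and the non-coding Snhg8 by 0.17 for wild type quercetin. Of 20 measured genes with a TOP start that encode no ribosomal protein, 17 and 18 were higher, with medians of 0.03 and 0.10. At an unadjusted p under 0.05 there were 2 and 0 of them, the initiation factor subunit Eif3k (0.36, SE 0.12) and the elongation factor subunit Eef1d (0.22, SE 0.10), both for POR-null control. The intermediate filament gene Vim, on the same list, differed by 0.66 and 0.76 with an SE of 0.38, beside the fibroblast and muscle signal given above. Nap1l1, a histone chaperone, differed by 0.36 (SE 0.19) for wild type quercetin.

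Ribosome biogenesis factors, 41 measured of 45, had medians of 0.01 and 0.03, with 1 and 0 at an unadjusted p under 0.05. That 1 was Nop10 (0.20, SE 0.09), part of the particle that converts uridine to pseudouridine. The assembly factors Rrs1 and Rrp12 differed by -0.26 and -0.14 for POR-null control, and Gnl3, Gar1 and Tsr1 by 0.22, 0.19 and 0.27 for wild type quercetin. Translation factors, 25 measured of 31, had medians of 0.07 and -0.01, with Eif4g3 (0.21, SE 0.09) past the unadjusted threshold for wild type quercetin. For POR-null control the cap-binding protein gene Eif4e differed by -0.25 and its inhibitor Eif4ebp1 by 0.26. Eif2s2 differed by 0.16 and 0.17 in these comparisons and Eif5 by 0.18 for wild type quercetin. Factors of nonsense-mediated decay, the pathway that degrades Gas5, had medians of 0.10 and 0.03 over 9 measured of 16. Smg5 passed the unadjusted threshold for POR-null control (0.19, SE 0.09) and Smg8 for wild type quercetin (0.18, SE 0.08). Casc3 differed by 0.13 for POR-null control and the helicase Upf1 by -0.18 for wild type quercetin. With limma 0 genes of these 5 lists passed after adjustment over all probe sets in either comparison.

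Likeness to Gas5 was measured as Pearson's correlation with its brightest probe set over the 12 arrays, which share their groups and pools. Among 10104 eligible probe sets the 5 highest were Slc25a28, a mitochondrial iron importer (r = 0.87), Nop53, a factor of large subunit assembly (0.87), Rbms1, an RNA-binding protein (0.83), Ccdc12, a part of the spliceosome (0.82), and Srsf6, a splicing factor (0.82). Nop53 read 7.63, 7.74 and 7.70 in POR-null quercetin, 7.87, 7.64 and 7.63 in POR-null control and 7.81, 7.46 and 7.67 in wild type quercetin, against 7.52, 7.43 and 7.41 in wild type control. After each group's mean was taken off, r was 0.75 for Slc25a28, 0.91 for Nop53, 0.61 for Rbms1, 0.09 for Ccdc12 and 0.54 for Srsf6. These genes were picked by their correlation over the same arrays, so these values are no separate check of the likeness. The ribosomal protein genes had r from -0.39 to 0.74 with Gas5 (median 0.42, 42 of 49 above 0), the highest being Rps15, and a median of 0.21 within the groups. Over all probe sets both medians were 0.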

How the data were processed

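The authors deposited 1 table of log2 signal for 22690 probe sets on 12 Affymetrix 430A arrays, each a pool of 3 mice per the labels. The deposited values ran from 2.7 to 14.09, with array medians of 5.9 to 5.98. The log2 scale was inferred from that range, which passes 11.1, the natural logarithm of the largest 16-bit count. MAS5 and RMA stand in the submitters' processing notes, with neither version nor role given. No normalization was repeated for the values reported. Without 64 Affymetrix controls, 22626 probe sets were tested. Of these 20380 had 1 symbol, 691 several and 1555 none. Among those with several, 102 named a ribosomal protein and were left out of the members, and 28 ribosomal protein genes were on such probe sets only. The reductase gene itself was not analysed here.

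Group means of all 12 arrays were fitted with limma 3.58.1 in R 4.3.3 (lmFit, eBayes with trend), with 8 residual degrees of freedom. Tests were two-sided, with p adjusted by Benjamini and Hochberg over all probe sets of a comparison, and the fit was tested on simulated data. SE is that of the moderated fit, and SD the spread of 3 arrays. Arrays limit the precision by their number. The members and lists were chosen with earlier results of these data known. Genes named are the 5 of the smallest unadjusted p in each comparison, 3 in the interaction, 3 at each end of level and of spread, fixed genes and paralogs, 5 most like Gas5 and 3 per list.

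Replicate numbers of the labels recur in each group. Deviations from group means of same-numbered arrays correlated at 0.19, 0.11 and 0.26 between POR-null control and wild type control, and at -0.19, 0.01 and 0.04 between wild type quercetin and wild type control. The values were -0.14, 0.05 and -0.08 between POR-null quercetin and POR-null control, and -0.12, 0.24 and 0.04 between POR-null quercetin and wild type quercetin. The labels state no pairing, and arrays of unlike number were not compared. This check therefore cannot show whether the numbers pair the arrays. Alternatives tried were array weights, median centring, repeated quantile normalization, a filter on dim probe sets, a mean over a gene's probe sets, the replicate block, only the compared groups and leaving out each array.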

Additional observations from a re-analysis of the deposited data

Results flagged for a closer look

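In its brightest probe set Rpsa, a small subunit protein, had quercetin differences of opposite sign in wild type and POR-null mice. Its wild type quercetin arrays (11.84, 12.01 and 11.91) all lay above the wild type control arrays (11.83, 11.55 and 11.42). Its POR-null quercetin arrays (11.79, 11.82 and 11.67) all lay below the POR-null control arrays (11.99, 11.91 and 11.83). Both separations were narrow, 11.84 against 11.83 and 11.82 against 11.83. Of all probe sets 5.65% and 3.27% showed such separations. The difference of the differences was -0.47 (SE 0.15, limma adjusted p = 0.998). The other probe set of the gene gave -0.04 for wild type quercetin minus wild type control and 0.04 for POR-null quercetin minus POR-null control. Its signs were the reverse of those of the brightest probe set.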

How the results depend on the processing

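All tests rest on 3 pools per group, and no correction for tissue mix was made. Against wild type control, the median differences of the ribosomal protein genes and the differences of Gas5 stayed above 0 under every alternative tried. For Gas5 most alternatives could not have turned the sign. Its wild type control arrays lay below all others, so leaving out or weighting arrays keeps it above 0. The filter, the replicate block and the fit of only the compared groups leave its difference as it was. Leaving out 1 array at a time gave medians of 0.06 to 0.14 for POR-null control and 0.08 to 0.16 for wild type quercetin against wild type control, -0.07 to 0.02 and -0.08 to 0.00 for POR-null quercetin against POR-null control and against wild type quercetin, and -0.18 to -0.08 for the interaction. Counts of members at an unadjusted p under 0.05 then ran from 2 to 12, 2 to 8, 0 to 1, 0 to 0 and 1 to 8 in the same order. The Gas5 differences ran from 0.50 to 0.68, 0.58 to 0.86, -0.14 to 0.04 and -0.32 to -0.05, the third turning to 0.04 without POR-null control replicate 1. Array weights, which gave the highest weights to POR-null control array 2 (2.72) and wild type control array 3 (2.49), turned that difference to 0.05. They gave 17 members for POR-null control, 10 for wild type quercetin, 2 for quercetin in POR-null and 11 for the interaction. Of the 17, 3 had an adjusted p under 0.05, where 399 of all probe sets did, against 0 without weights. The weights also took the count of all probe sets at the unadjusted threshold to 4632 from 1537 for POR-null control and to 2510 from 1165 for wild type quercetin. The mean over a gene's probe sets gave 2 members for POR-null control, where 821 of all genes passed. It gave 1 for wild type quercetin and 1 for the interaction. Median centring gave 3 for wild type quercetin, and a filter on dim probe sets gave 5 for the interaction. The causes were not tested. With the replicate block 6 members passed for POR-null control, where 1654 of all probe sets did, and 6 for wild type quercetin. There were 0 and 0 in the comparisons with POR-null quercetin and 3 in the interaction. These member counts were 4 for POR-null control and 5 for wild type quercetin without the block, so none changed by over 1.5 times. The Gas5 difference for POR-null control stayed at 0.58. It could not move, since every group holds the same replicate numbers. Where no count over all probe sets is given, the member counts have no background beside them. Such counts do not show whether the members moved more than other genes. Fitting only the compared groups gives no value for the interaction.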
